A study of Mus musculus with 3 samples.

Results

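Tcf1 binding at 9 genes of the tumour necrosis factor (TNF) receptor pathway was examined in CD4 T cells. The genes were the receptors Tnfrsf4, Tnfrsf9, Tnfrsf18, Tnfrsf1b, Tnfrsf25, Tnfrsf14 and Cd27, and the adaptors Traf1 and Traf3. A Tcf1 peak belonged to a gene if its midpoint lay in the gene's mm10 span, or if the gene was the nearest protein-coding gene within 100 kb. By this rule the 9 genes, of 21887 protein-coding genes considered, held 12 peaks of the 7921 in both lists, 6 from Treg cells and 6 from conventional cells.

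The study mapped Tcf1, the HMG-box factor encoded by Tcf7, by chromatin immunoprecipitation with an antiserum to Tcf1, followed by sequencing. Regulatory T cells (Treg cells) were TCRb+ CD4+ CD25+ and positive for the Foxp3-Cre-GFP reporter, and conventional CD4 T cells were TCRb+ CD4+, CD25- and reporter-negative. Both populations were sorted from spleens of wild-type Foxp3-Cre-GFP mice aged 8 to 10 weeks, so both carried the reporter allele. The tissue label of the conventional sample says effector, whereas its title and source say conventional, and another library, from Tcf1-deficient cells of CD4-Cre+ Tcf1 fl/fl mice, was not analysed here. One deposited peak list came from each cell type, from a single library, with 3402 Treg and 4519 conventional peaks. The lists give positions without read counts or heights, so the depth is unknown, no difference between the cell types could be tested, and every count below describes a pair of libraries. Of the loci looked at to check the labels, Tcf7 had 7 Treg and 7 conventional peaks and Axin2 had 3 in each list. Il2ra and Ctla4 had 1 in each list, Lef1 had 5 Treg and 10 conventional peaks, and the Treg marker Ikzf2 had 0 Treg peaks and 1 conventional peak, whereas Foxp3, Cd4, Cd8a, Ms4a1 and Lyz2 had none in either.

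Receptors of the TNF family are surface proteins that bind trimeric ligands and recruit TRAF adaptors, which pass the signal to the canonical and alternative NF-kappaB pathways. In T cells several of them act as costimulatory receptors after antigen recognition. Treg cells are known for high surface levels of OX40 (Tnfrsf4), GITR (Tnfrsf18) and TNFR2 (Tnfrsf1b), and TRAF3 is known as a brake on alternative NF-kappaB signalling.

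Peaks were found at 6 of the 9 genes, where 20.4% of all protein-coding genes had a peak in either list. A Treg peak was assigned to 5 of the 9 (Tnfrsf1b, Tnfrsf18, Cd27, Tnfrsf14 and Tnfrsf9), where 12.3% of all protein-coding genes had one. A conventional peak was assigned to 5 of the 9 (Tnfrsf1b, Tnfrsf18, Cd27, Tnfrsf14 and Traf1), where the share of all protein-coding genes was 16.3%. Peaks of both lists were present at 4 of the 9, against 8.17% of all protein-coding genes. With all annotated genes considered, noncoding included, these counts were 3 (Treg), 2 (conventional) and 2 (both). Among the widest 1701 of 3402 Treg peaks and 2259 of 4519 conventional peaks they were 2, 3 and 1. The 9 genes were chosen with results of these lists known, so these counts are a description and no test was made. No peak of either list was assigned to Tnfrsf4, Tnfrsf25 or Traf3.

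**Figure D1:**
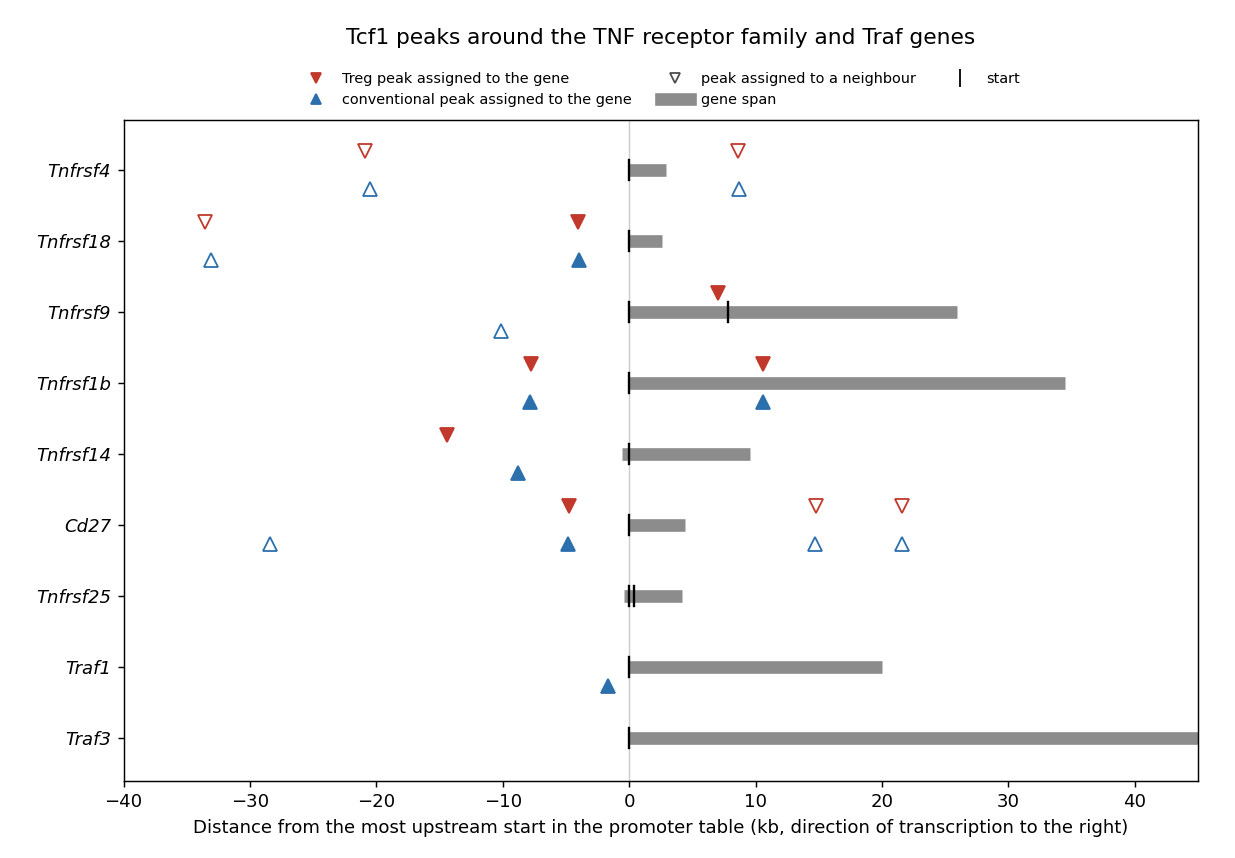
Map of Tcf1 peaks around each of the 9 genes, with the distance of the peak midpoint from the gene's most upstream start in kb on the horizontal axis and transcription running to the right. Grey bars are gene spans (the Traf3 bar runs past the right edge), black ticks are starts, filled triangles are peaks assigned to the gene (Treg above the bar, conventional below) and open triangles are peaks assigned to a neighbour. Paired triangles stand above and below the bar at Tnfrsf18, Tnfrsf1b and Cd27, whereas the Tnfrsf9 gene has a Treg peak alone and Traf1 a conventional peak alone.

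Of the 6 Treg peaks at these genes, 4 overlapped a conventional peak by at least 1 bp and are called shared, a share of 66.7% (95% Clopper-Pearson interval 22.3% to 95.7%, counting error alone). Over the whole Treg list the shared share was 56.9%. Of the 6 conventional peaks 4 were shared as well, or 66.7% (22.3% to 95.7%), where the whole conventional list had 42.8%. Both intervals hold the share of the whole list. The shared peaks of the 2 lists are the same 4 sites, and Tnfrsf1b has 2 peaks in each list. The peaks are therefore not independent, and no difference from the lists was tested. The 12 peaks amount to 8 separate sites, of which 4 were shared, 2 were Treg-only and 2 were conventional-only, meaning that no peak of the other list overlapped or had its midpoint within 1000 bp.

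Tnfrsf1b, which encodes TNFR2, was the member with the most peaks, 2 in each list, and all of them were shared. The peak inside the gene span lay at chromosome 4, 145235959 to 145236585 in the Treg list (627 bp) and 145235867 to 145236689 in the conventional list (823 bp). Its midpoints were 6 bp apart, and the Treg peak lay wholly within the conventional one. This site was 10598 bp downstream of the start in the Treg list, in a gene 34503 bp long transcribed from the minus strand, and whether it is exonic or intronic was not resolved here because spans were used. In width it ranked 327 from the widest of the 3402 Treg peaks and 268 from the widest of the 4519 conventional peaks, so it was among the wider peaks of both lists. The other site lay 7790 bp upstream of the start in the Treg list (145254506 to 145254814, 309 bp) and 7819 bp upstream in the conventional list (145254470 to 145254909, 440 bp). It was of ordinary width, at rank 2368 in the Treg list and 2098 in the conventional list, and its midpoints were 29 bp apart. This upstream site falls within the span of Gm36233, a long noncoding RNA gene between Tnfrsf1b and Tnfrsf8. The next protein-coding gene, Tnfrsf8 (which encodes CD30), was 12472 bp from it in the Treg list. When all annotated genes were considered, Tnfrsf1b kept 1 peak in each list. Among the widest 1701 Treg and 2259 conventional peaks, Tnfrsf1b had 1 Treg peak and 2 conventional peaks. Another 63 protein-coding genes shared the pattern of 2 Treg peaks, both shared, and 2 conventional peaks, and none of them was in the pathway lists described further on.

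Tnfrsf18, which encodes GITR, had 1 shared peak upstream of its start. It lay at chromosome 4, 156022040 to 156022514 in the Treg list (475 bp) and 156022174 to 156022590 in the conventional list (417 bp). The midpoints were 4045 bp (Treg) and 3940 bp (conventional) upstream of the start, 105 bp apart, and the overlap was 341 bp. This was the one shared site of the 4 at which the Treg peak was the wider, at rank 829 from the widest in the Treg list and 2407 in the conventional list. Over all 1935 shared Treg peaks, 69.8% were narrower than their conventional partner, and 3 of the 4 at these genes were.

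The neighbouring gene Tnfrsf4, which encodes OX40, lies on the same strand 9708 bp before Tnfrsf18, and the shared peak sits in the stretch between them. It was 5664 bp (Treg) and 5769 bp (conventional) from the end of Tnfrsf4, and thus nearer to Tnfrsf18. The rule gave it to Tnfrsf18, and Tnfrsf4 counted as having no peak. When every peak within 10 kb of a span was counted, Tnfrsf4 had 1 peak in each list. The site is also within the span of the long noncoding RNA gene Gm16008, to which it went when all annotated genes were considered. Among the widest 1701 Treg and 2259 conventional peaks, the Treg peak of this site alone remained. Distance alone assigned it, and which of these genes it bears on was not tested.

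Cd27, the receptor for CD70 that is found on naive T cells, had 1 shared peak upstream of its start. The Treg peak (chromosome 6, 125241635 to 125241979, 345 bp) lay wholly within the conventional peak (125241621 to 125242066, 446 bp). Midpoints were 4780 bp (Treg) and 4816 bp (conventional) upstream of the start of this minus-strand gene, 36 bp apart. Its width was ordinary in both lists, at rank 1931 of 3402 in the Treg list and 2030 of 4519 in the conventional list. Tnfrsf18 and Cd27 had the same pattern, 1 shared Treg peak and 1 conventional peak, which each of them had in common with 1093 other protein-coding genes. The Cd27 site went to a nearer noncoding gene when all annotated genes were considered. Among the widest 1701 Treg and 2259 conventional peaks, Cd27 had 0 Treg peaks and 1 conventional peak. In the pathway lists the shared pattern was found at Cflar, Lta, Ltb, Nfkbib, Relb and Ripk1.

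Tnfrsf14, which encodes HVEM, the receptor for LIGHT and for the inhibitory receptor BTLA, carried a different peak in each list. Its Treg-only peak (chromosome 4, 154942362 to 154942633, 272 bp) lay 14420 bp upstream of the start. Its conventional-only peak (154936691 to 154937078, 388 bp) lay 8807 bp upstream. The midpoints were 5613 bp apart, so a count of genes with peaks in both lists takes in Tnfrsf14 although no site was common to them. Both peaks were narrow or of ordinary width for their list, the Treg peak at rank 2853 of 3402 and the conventional one at rank 2739 of 4519. Within 10 kb of the span the conventional peak alone remained, and neither was among the widest 1701 Treg and 2259 conventional peaks.

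Tnfrsf9, which encodes the costimulatory receptor CD137, had 1 Treg-only peak and no conventional peak. A Treg peak without a conventional one was found at 4.13% of all protein-coding genes. The peak lay inside the gene span at chromosome 4, 150927068 to 150927327, and was 260 bp wide. It ranked 3066 from the widest of the 3402 Treg peaks, so it was among the narrowest of the list, whose minimum was 240 bp, and Tnfrsf9 had no peak among the widest 1701. The RefSeq promoter table gives Tnfrsf9 starts at 150920155 and 150927999, both on the plus strand, and the peak was 7042 bp downstream of the first and 802 bp upstream of the second. The nearest conventional peak was 10104 bp from the gene span, at the start of the neighbouring gene Park7 (150909815 to 150910288). That peak overlapped the Park7 promoter window. Another 824 protein-coding genes had 1 unshared Treg peak and no conventional peak, and Cd70, Fadd, Nfkb1, Rela and Tank were those in the pathway lists.

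Traf1, an adaptor that pairs with TRAF2 and is itself a target of NF-kappaB, had 1 conventional-only peak and no Treg peak. A conventional peak without a Treg one was found at 8.10% of all protein-coding genes. The peak, at chromosome 2, 34962843 to 34963978, was 1136 bp wide, the widest of the 12, and ranked 65 from the widest of 4519 conventional peaks. Its midpoint was 1638 bp upstream of the start of this minus-strand gene. The nearest Treg peak was 139318 bp from the Traf1 span and was assigned to Fbxw2. The peak midpoint fell in the span of the long noncoding RNA gene Gm52552, which overlaps Traf1 and took the peak when all annotated genes were considered. Another 1628 protein-coding genes had 1 conventional peak and no Treg peak, among them Birc3, Cyld, Ikbkb, Nfkbiz, Rel, Tnfsf11, Tnfsf8, Traf4, Traf5 and Traf7 of the pathway lists.

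Taking the nearest peak of either list, Tnfrsf25 and Traf3 were the members farthest from a peak. Tnfrsf25, which encodes the death-domain receptor DR3, had its nearest Treg peak 104420 bp away and its nearest conventional peak 106613 bp away, both just outside the 100 kb limit and both assigned to Klhl21. A Treg peak as near as that was found at 40.9% of protein-coding genes and a conventional peak at 50.3%, so the gene was not unusual in this. Traf3 had its nearest Treg peak 271398 bp away. Its nearest conventional peak was 94249 bp away and lay inside Rcor1, to which the rule gave it. At 62.4% of protein-coding genes a Treg peak was as near as at Traf3 or nearer, and for conventional peaks the share was 47.9%.

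**Figure D2:**
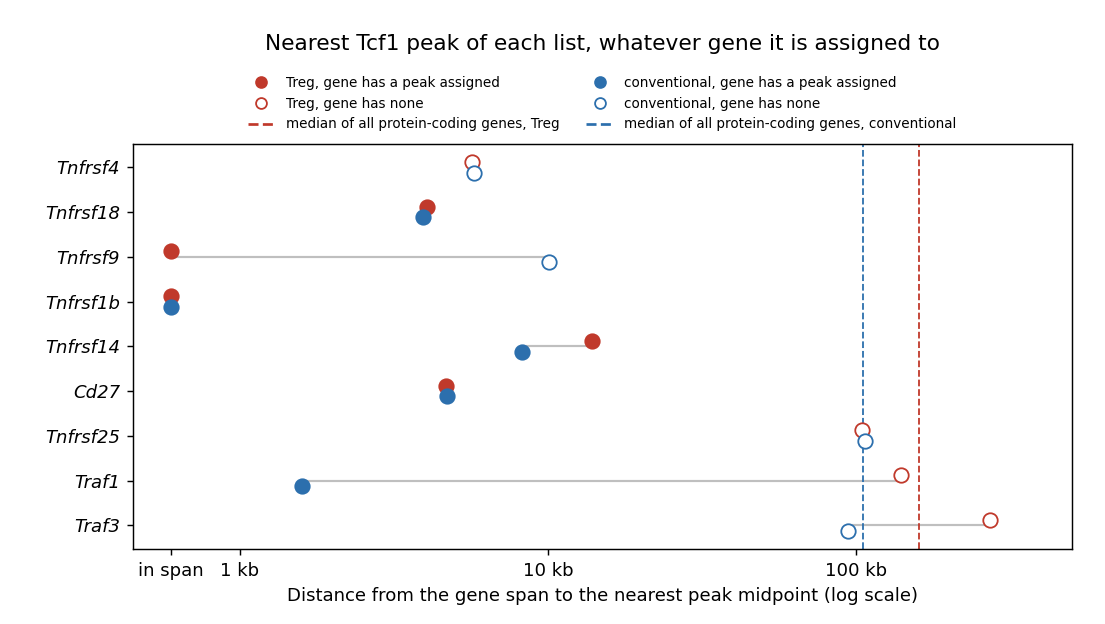
Distance from each gene span to the nearest peak midpoint in the Treg and the conventional list, on a log axis with peaks inside the span drawn at the left edge. Filled circles mark genes with an assigned peak, open circles genes without one, and dashed lines the medians over all protein-coding genes (160216 bp for Treg and 104815 bp for conventional). At Tnfrsf9 and Traf1 a filled circle of a single list stands apart from an open circle of the other.

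Over the 9 genes the median distance to the nearest peak was 5664 bp for the Treg list and 5769 bp for the conventional list. Over all protein-coding genes the medians were 160216 bp and 104815 bp. A Treg peak lay within 10 kb of the span at 5 of the 9 (15.1% of all protein-coding genes) and a conventional peak at 6 of the 9 (21.1%). Tnfrsf4 and Tnfrsf18 count separately here although they have the same nearest peak. Both medians over the 9 genes are the distances of Tnfrsf4, to which no peak was assigned. The 9 genes were chosen with results of these lists known, so no closeness particular to them is shown.

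Most of the peaks lay more than 1 kb from the annotated starts. None of the 11 promoter windows of the 9 genes, each 250 bases before and 50 bases after a start in the RefSeq table (GRCm38.p6), was overlapped by a peak of either list. Over all 17492 protein-coding genes with a window in that table, 7.11% had a window overlapped by a Treg peak and 11.3% by a conventional peak. With 9 genes, none is close to these shares. Of all Treg peaks 33.0% overlapped such a window, and of all conventional peaks 39.1% did, so starts are a common place for peaks in both lists. At the 9 genes, 4 of 6 Treg peaks lay upstream of the gene, more than 1 kb from a start, against 13.0% of Treg peak and gene pairs over all genes with a listed start. Among conventional peaks 5 of 6 did so, against 10.9%. Upstream peaks were not particular to the 9 genes. Among the other TNF receptors described further on, Tnfrsf8 had Treg peaks 4249 and 27027 bp upstream. Tnfrsf19 had a shared site 9865 bp (Treg) and 9880 bp (conventional) upstream. Of the peaks of those receptors with a listed start, 2 of 5 Treg and 3 of 6 conventional peaks lay within 1 kb of one. Within 1 kb of a start were 1 of the 6 Treg peaks (at Tnfrsf9) and 0 of the 6 conventional peaks, against 48.8% and 55.3% of pairs over all such genes. Elsewhere in the gene span lay 1 of 6 in each list (the Tnfrsf1b site), against 26.5% of Treg and 24.7% of conventional pairs. None lay downstream of its gene, where 11.7% of Treg and 9.09% of conventional pairs did. The shares over all genes rest on the 80.1% of Treg and 80.7% of conventional pairs whose gene has a start in the table.

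**Figure D3:**
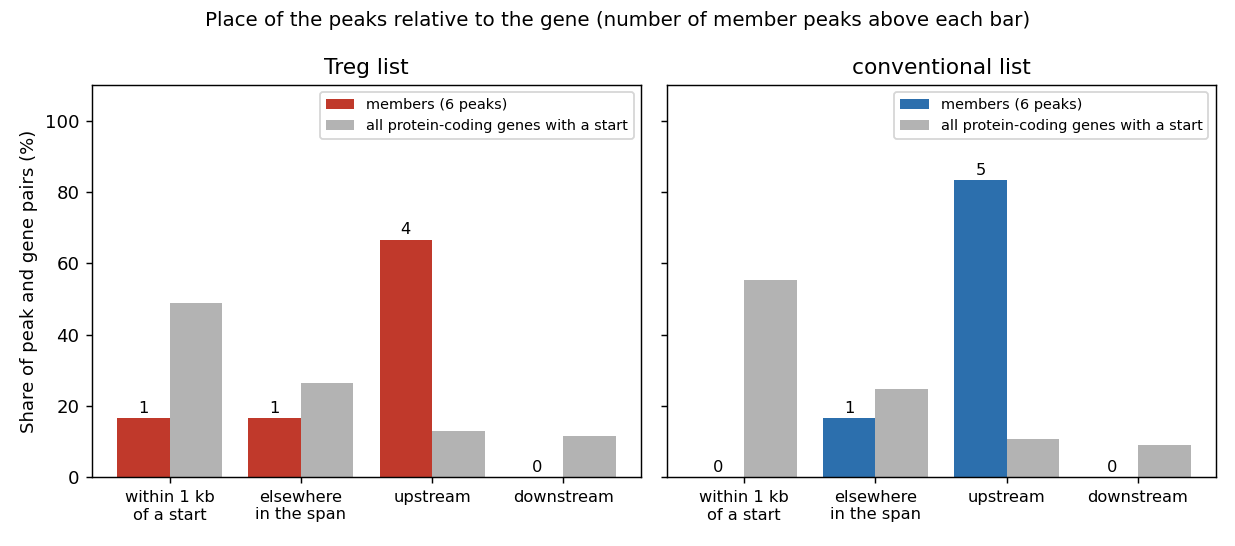
Share of peak and gene pairs, in percent, by place of the peak midpoint relative to the gene, in the Treg list (left) and the conventional list (right). Coloured bars are the 6 peaks of each list at the 9 genes, with their number above each bar, and grey bars are all protein-coding genes with a start in the table. Upstream peaks, at 4 and 5 of 6, outnumber the other places at the 9 genes, whereas over all genes peaks within 1 kb of a start are the commonest.

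A noncoding gene lay at 3 of the 8 sites, the upstream sites of Tnfrsf1b, Tnfrsf18 and Traf1. Counted per list, these were 2 of the 4 Treg and 3 of the 5 conventional peaks outside the spans of the 9 genes. Over each whole list, 18.7% of Treg and 18.7% of conventional peaks outside protein-coding spans had their midpoint in a noncoding gene.

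Promoter windows of 4 of the genes with peaks are shown, and no peak covers any of them. They are those of Tnfrsf9, whose peak ended 421 bases before the window of the second start, of Traf1, whose peak lay 820 bases upstream of its window, and of Tnfrsf18 and Cd27, whose shared peaks are the next nearest to a window of their gene. The gap was 3557 bases (Treg) and 3481 bases (conventional) at Tnfrsf18, and 4357 bases (Treg) and 4343 bases (conventional) at Cd27. The window of the first Tnfrsf9 start is shown beside that of the second. Each is printed 5′ to 3′ on the strand of the gene, and capitals mark matches on either strand to the motifs searched.
Tnfrsf9 first start, chr4:150919905-150920204, plus strand: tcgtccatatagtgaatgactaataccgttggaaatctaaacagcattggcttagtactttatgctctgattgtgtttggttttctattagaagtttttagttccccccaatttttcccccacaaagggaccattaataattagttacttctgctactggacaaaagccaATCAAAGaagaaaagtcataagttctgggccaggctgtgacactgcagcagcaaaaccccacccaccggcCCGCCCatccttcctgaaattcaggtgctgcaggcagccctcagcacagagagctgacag
Tnfrsf9 second start, chr4:150927749-150928048, plus strand: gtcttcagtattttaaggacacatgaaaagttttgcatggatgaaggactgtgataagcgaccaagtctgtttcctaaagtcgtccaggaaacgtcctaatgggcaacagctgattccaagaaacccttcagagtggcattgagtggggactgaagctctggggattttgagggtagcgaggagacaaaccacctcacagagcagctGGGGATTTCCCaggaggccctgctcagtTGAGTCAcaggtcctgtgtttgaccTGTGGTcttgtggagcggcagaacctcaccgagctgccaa
Tnfrsf18, chr4:156026072-156026371, plus strand: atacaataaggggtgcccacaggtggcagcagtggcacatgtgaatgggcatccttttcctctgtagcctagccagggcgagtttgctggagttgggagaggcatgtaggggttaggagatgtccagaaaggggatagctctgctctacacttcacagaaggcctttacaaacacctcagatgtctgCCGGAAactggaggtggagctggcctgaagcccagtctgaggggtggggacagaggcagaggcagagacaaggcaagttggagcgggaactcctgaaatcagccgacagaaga
Cd27, chr6:125236978-125237277, minus strand: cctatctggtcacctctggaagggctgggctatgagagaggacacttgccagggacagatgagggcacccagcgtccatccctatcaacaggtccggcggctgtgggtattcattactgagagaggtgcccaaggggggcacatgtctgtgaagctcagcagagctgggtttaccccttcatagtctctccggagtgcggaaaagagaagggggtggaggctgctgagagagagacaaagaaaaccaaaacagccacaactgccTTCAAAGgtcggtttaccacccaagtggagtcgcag
Traf1, chr2:34961723-34962022, minus strand: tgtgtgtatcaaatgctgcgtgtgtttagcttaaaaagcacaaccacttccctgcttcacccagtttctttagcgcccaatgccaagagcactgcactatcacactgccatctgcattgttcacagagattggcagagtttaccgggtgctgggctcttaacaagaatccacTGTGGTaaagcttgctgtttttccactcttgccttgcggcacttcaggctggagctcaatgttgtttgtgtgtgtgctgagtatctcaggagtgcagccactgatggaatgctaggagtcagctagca

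The TCF/LEF motif, searched on both strands as CTTTG followed by AA, AT, TT or TA, was found in 3 of the 11 windows, where 14.7% of all 21263 protein-coding windows held it. The Tnfrsf9 window at the first start had ATCAAAG beginning 80 bases before the start, and the Cd27 window had TTCAAAG beginning at base 15 from the start. The remaining match, AACAAAG, was in the window of the second Tnfrsf25 start, a gene with no peak within 100 kb. The second Tnfrsf9 window, which is nearest to the Treg-only peak, held no TCF/LEF match. That window held the AP-1 letters TGANTCA (6.99% of all windows), the RUNX letters TGTGGT (15.0%) and a stretch matched at 2 adjoining positions by the kappaB consensus (4.81%). The capitals GGGGATTTCCC are that kappaB stretch. The Traf1 window held the RUNX letters as its single match, and the Tnfrsf18 window held the ETS letters CCGGAA as its single match. Over the 11 windows the RUNX letters were found in 3, the ETS letters in 3 (18.7% of all windows), the GC box GGGCGG in 4 (46.2%), the AP-1 letters in 1 and the kappaB consensus in 2. These matches describe letters in the windows, and the sequence under the peaks themselves was not used here.

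**Figure D4:**
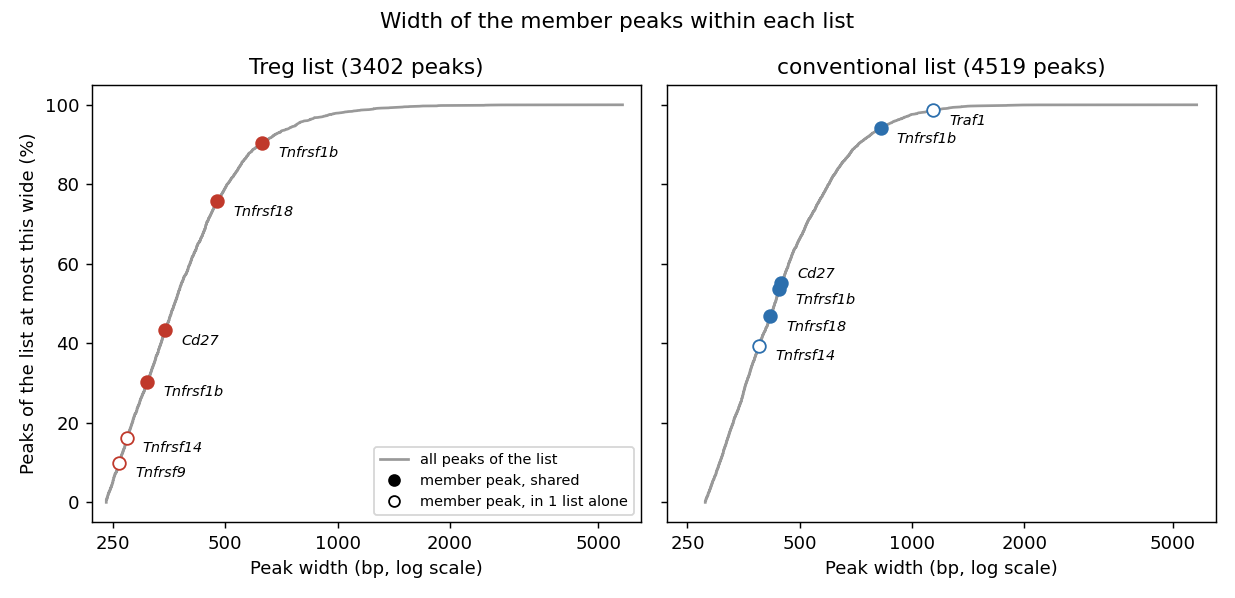
Width of the peaks at the 9 genes within the Treg list (left) and the conventional list (right), with width in bp on a log axis and the percentage of the list's peaks that are at most that wide on the vertical axis. Grey curves are all peaks, filled circles shared peaks and open circles peaks found in 1 list alone. The Treg-only peaks of Tnfrsf9 and Tnfrsf14 are the narrowest Treg peaks, and the conventional-only peak of Traf1 is the widest conventional peak, of those at the 9 genes.

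Width was the one measure of a peak that the lists offer, and it stands for no known quantity of binding. The 6 Treg peaks were 260 to 627 bp wide with a median of 327 bp, beside a median of 366 bp over the Treg list. The 6 conventional peaks were 388 to 1136 bp wide with a median of 443 bp, beside 428 bp over the conventional list. Both Treg-only peaks were narrower than every shared Treg peak at these genes. This rests on 2 peaks, and the widths of Treg-only and shared peaks over the whole list were not compared. In the conventional list the unshared peaks of Traf1 and Tnfrsf14 were the widest and the narrowest of the 6.

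The rest of the pathway was described from 4 lists with 74 genes, each set beside the same shares over all protein-coding genes (12.3% with a Treg peak and 16.3% with a conventional peak). Among 21 other TNF receptors, a Treg peak was found at 4 (19.0%) and a conventional peak at 4 (19.0%), close to those shares. Tnfrsf8, the neighbour of Tnfrsf1b, had 2 Treg-only peaks, 4249 and 27027 bp upstream of its start, and no conventional peak. Tnfrsf1a, the other receptor for TNF, had 2 conventional-only peaks, 1 of them 83 bp from its start, and no Treg peak. Tnfrsf19 had 2 Treg and 3 conventional peaks with 2 shared, and Tnfrsf10b, a receptor for TRAIL, had 2 Treg peaks and 1 conventional peak with 1 shared. Relt had 1 peak in each list that lay close together without overlap. Among 18 ligands of the family, 4 had a Treg peak (22.2%) and 5 a conventional peak (27.8%). Lta and Ltb, which encode the lymphotoxin chains, each had 1 shared peak inside the gene span, and Fasl, the ligand of the death receptor Fas, had 2 Treg peaks, both shared, and 7 conventional peaks. Cd70, the ligand of CD27, had 1 Treg-only peak 6845 bp from its span, whereas Tnfsf8, the ligand of CD30, and Tnfsf11 had 1 conventional-only peak each. The ligands of OX40, GITR and CD137 (Tnfsf4, Tnfsf18 and Tnfsf9) had no peak in either list.

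Signalling genes next to the receptors carried peaks more often than the other receptors and ligands did in these lists, a difference that was not tested. Of 22 such genes 8 had a Treg peak (36.4%), 11 a conventional peak and 6 both. Map3k14, which encodes the kinase NIK that TRAF3 keeps low, had a Treg-only peak 18 bp from its start (835 bp wide) and a conventional-only peak 1347 bp downstream of it (419 bp wide). Tnfaip3, which encodes the NF-kappaB inhibitor A20, had a shared peak at its start and a Treg-only peak 47118 bp upstream. Birc2, a ubiquitin ligase that TRAF2 recruits, had a shared peak at its start and a Treg-only peak inside the gene, and its neighbour Birc3 had 1 conventional-only peak of 1075 bp. Ripk1, Cflar and Otulin each had 1 shared peak, and Otulin had a further conventional-only peak. Traf4, Traf5 and Traf7 each had a conventional-only peak within 1 kb of a start, like Traf1 in class but nearer to the gene, and Traf2 and Traf6 had none.

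Among 13 NF-kappaB subunits, inhibitors and kinases, 5 had a Treg peak (38.5%) and 6 a conventional peak (46.2%). Nfkbia, the inhibitor that NF-kappaB itself induces, had 2 Treg peaks, both shared, and 3 conventional peaks. Nfkbib and Relb had 1 shared peak each. Nfkb1 and Rela had a Treg-only peak, and Rel, Nfkbiz and Ikbkb a conventional-only peak. Among peaks of genes with a listed start, 5 of 10 Treg and 8 of 12 conventional peaks of the receptor-proximal list lay within 1 kb of a start, as did 3 of 4 Treg and 3 of 5 conventional peaks of the NF-kappaB list. For the other TNF receptors these were 2 of 5 Treg and 3 of 6 conventional peaks, and for the ligands 1 of 4 Treg and 2 of 11 conventional peaks. The corresponding numbers at the 9 genes were 1 of 6 and 0 of 6.

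**Figure D5:**
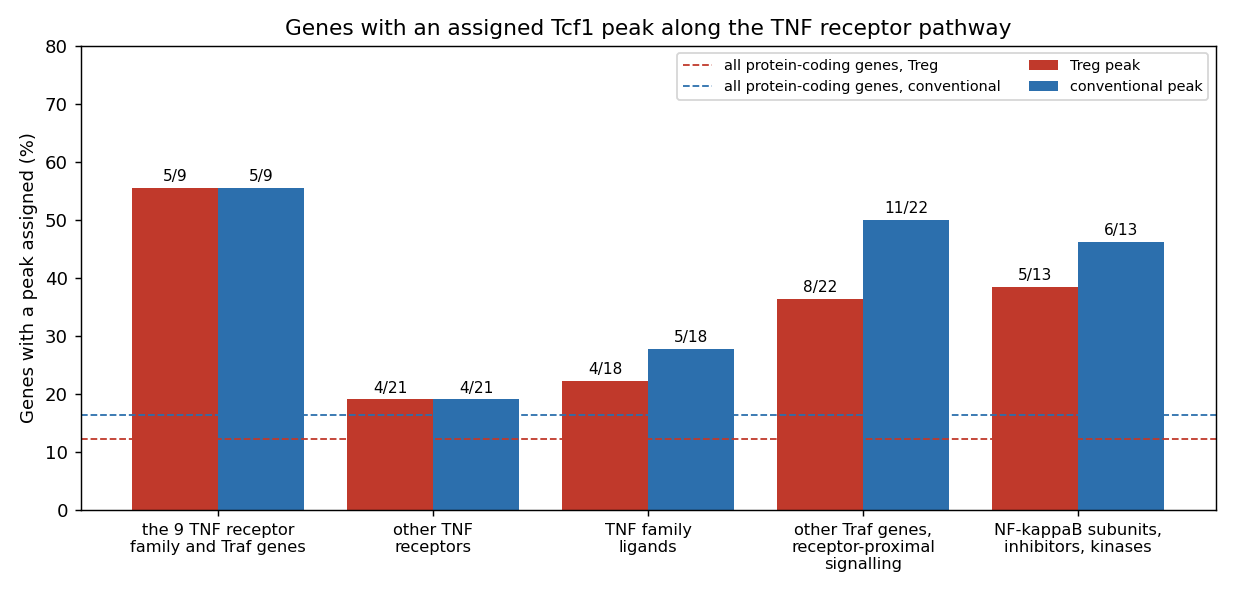
Percentage of genes with an assigned Treg or conventional peak among the 9 genes and in the 4 pathway lists, with the number of genes above each bar. Dashed lines are the shares over all protein-coding genes, 12.3% for Treg and 16.3% for conventional. The other TNF receptors stand closest to the dashed lines, at 4 of 21 in each list.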

How the data were processed

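Tcf1 peaks came from 2 deposited lists with 3 columns (chromosome, start and end), 1 each from Treg and conventional cells, labelled by the authors as filtered. What was filtered is not stated in the labels. Bowtie2 2.3.4.1, MACS2 2.1.1, FastQC and mm10 appear in the submitters' processing notes, with no roles. Gene spans, starts and promoter windows came from RefSeq tables of GRCm38.p6, the mm10 assembly, and all 9 genes and all 74 pathway genes matched by symbol. Mitochondrial and unplaced genes were left out. Positions are 1-based, and distances run from peak midpoints.

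A peak went to each protein-coding gene whose span held its midpoint, otherwise to the nearest within 100 kb. Computation used scipy 1.17.1, pandas 2.3.3 and numpy 2.4.6 under Python 3.11.15, with plots by matplotlib 3.10.9. Overlap and assignment were tested on simulated data. With 1 list per cell type no test was possible, and Clopper-Pearson intervals (95%) cover counting error alone. Members, lists and motifs were chosen with earlier results of these data known. Genes named were the 9 members and, from each pathway list, up to 6 genes with the most peaks, and others are named as members of a count or were chosen after their values were seen.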

Additional observations from a re-analysis of the deposited data

How the results depend on the processing

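Counts of the 9 genes and of their peaks stayed within 1.5 times the reported ones with limits of 20 kb or 10 kb, all peaks within 10 kb of a span, lists of equal length (3402 peaks), merging within 1000 bp, and nearest start sites in place of spans, the last chosen after seeing the data. Overlap of 0.5 of the narrower peak, or midpoints within 500 bp, left 4 shared peaks in each list. Among all annotated genes, noncoding included, 3 of the 9 had a Treg peak, 2 a conventional peak and 2 both, with 3 Treg peaks (1 shared) and 2 conventional peaks (1 shared), because noncoding genes then took the sites they span or lie nearest to, among them those of Tnfrsf18, Cd27 and Traf1. Among the widest peaks of each list (1701 Treg and 2259 conventional), 2 had a Treg peak, 3 a conventional peak and 1 both, with 2 Treg peaks (1 shared) and 4 conventional peaks (1 shared). Tnfrsf9, Tnfrsf14 and Cd27 had no Treg peak there, and Tnfrsf14 and Tnfrsf18 no conventional peak. No paired analysis was possible because the labels give no replicate numbers and each cell type has 1 library. Depth is unknown, and where a peak is missing, absent binding and binding below the calling threshold cannot be told apart.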

Other observations

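Several peaks near the 9 genes lay at the starts of neighbouring genes. Between B3galt6 and Sdf4, upstream of Tnfrsf4, a Treg peak of 592 bp overlapped the promoter windows of both genes and met a conventional peak of 300 bp that overlapped the Sdf4 window. Near Cd27, Vamp1 had 2 shared peaks, 1 of which overlapped its promoter window, and a Treg-only peak of 272 bp overlapped the promoter window of Gapdh, a housekeeping gene.

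Of the 9 genes 6 lie within 10.8 Mb of chromosome 4 (145212368 to 156028894) that also holds many other genes, 159 protein-coding genes in all. This segment held 27 of 177 Treg peaks on the chromosome (15.3%) and 35 of 238 conventional peaks (14.7%). It is bounded by the spans of Tnfrsf1b and Tnfrsf18, and its counts include the peaks of the 9 genes. Its share of the chromosome's length or genes was not computed, so whether it is dense in peaks is not shown. In it 15 Treg peaks (55.6%) and 15 conventional peaks (42.9%) were shared, beside 56.9% and 42.8% over the whole lists.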
